A study of Mus musculus with 28 samples.

Results

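The platelet-derived growth factor (PDGF) family was followed through the healing of excisional skin wounds in mice, by its 4 ligand genes, Pdgfa, Pdgfb, Pdgfc and Pdgfd, and its 2 receptor genes, Pdgfra and Pdgfrb. These 6 genes were taken by symbol from a table of 29068 genes, and all 6 were among the 18107 genes with enough counts to be tested. The tissue came from MLKL+/+ mice (C57BL/6J in the sample labels), 8 weeks old, in which a round piece of back skin had been punched out down to the fascia and had healed without treatment. The whole wound site, with scab and epithelial edge, was taken, and its RNA was sequenced in 28 libraries, 4 on each of days 0, 3, 5, 7, 10, 12 and 14. The series describes the day 0 controls as skin taken 0 days after injury, whereas the study counts the day of wounding as day 1 and lists its first collection on that day. By the study's numbering a day 0 sample would precede the wound, and by the series' wording it could be the day of wounding itself, so the sources differ on this point. All groups share the strain, genotype and treatment label, and a contrast with day 0 may compare wounded with unwounded skin as well as different days. Neither source states how many animals gave each library, so the p-values below measure the spread between libraries, which may be technical.

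PDGFs are secreted dimers that drive the migration and division of fibroblasts, pericytes and smooth muscle cells, and platelets release them at the start of wound repair. PDGF-A and PDGF-B are cut inside the cell by furin-like convertases, whereas PDGF-C and PDGF-D leave the cell in a latent form whose CUB domain must be removed by plasminogen activators or related proteases. The receptors are tyrosine kinases encoded by separate genes. PDGFRα, from Pdgfra, marks fibroblasts and binds the A, B and C chains, and PDGFRβ, from Pdgfrb, is abundant in pericytes and in activated fibroblasts and binds the B and D chains.

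On the mm10 build the members lie at chr5:138976014-139000792 (Pdgfa), chr15:79995865-80024614 (Pdgfb), chr3:81036416-81214040 (Pdgfc), chr9:6168363-6534284 (Pdgfd), chr5:75151322-75198206 (Pdgfra) and chr18:61045127-61085067 (Pdgfrb), and the values below are sums over each whole gene. Library totals lay between 36706513 and 40655764 counts. The day 0 libraries differed more among themselves than those of any other day (biological coefficient of variation 26.4%, against 5.70% to 10.8% on the wound days) and fell into pairs. In day 0 replicates 2 and 3, 8 fibroblast markers summed to 57205 and 54969 CPM (counts scaled to a common library total), and in replicates 1 and 4 to 25509 and 14691 CPM. Conversely, 6 skeletal muscle markers summed to 17469 and 17853 CPM in replicates 2 and 3 and to 27862 and 29243 CPM in replicates 1 and 4. Over the genes tested, deviations from the day 0 mean correlated at 0.35 between replicates 2 and 3 and at -0.076 between 1 and 4. Across the pairs these correlations were -0.60 to -0.53. Not every list was split this way. Macrophage markers summed to 2038 CPM in replicate 4 and to 2853, 2931 and 2992 CPM in replicates 1 to 3. The changes of the members from day 0 were therefore also fitted without each pair, and so were those of the other genes and lists named below. Keratinocyte markers were abundant on all days (Krt14 at day means of 682 to 1106 FPKM, fragments counted per transcript length and library total), so the labelled tissue carried its defining markers.

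On the length-corrected FPKM scale the receptors were the most abundant members in all 28 libraries. Over the 7 day means Pdgfra ran from 13.1 to 29.1 FPKM and Pdgfrb from 17.7 to 31.6 FPKM. The ligands were lower, with ranges of the day means of 5.98 to 8.81 FPKM for Pdgfb, 2.58 to 8.12 for Pdgfc, 2.16 to 4.60 for Pdgfd and 1.65 to 2.93 for Pdgfa. Their order was not fixed. Pdgfa was the lowest member in all libraries of days 3, 5, 7, 10 and 12, yet stood above both Pdgfc and Pdgfd in all 4 libraries of day 14. Pdgfc passed Pdgfb in all 4 libraries of day 7 and in 1 of 4 on day 0, and in no library of another day. Pdgfc varied most, 3.15-fold between its highest and lowest day mean, and Pdgfb least, 1.47-fold.

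**Figure D1:**
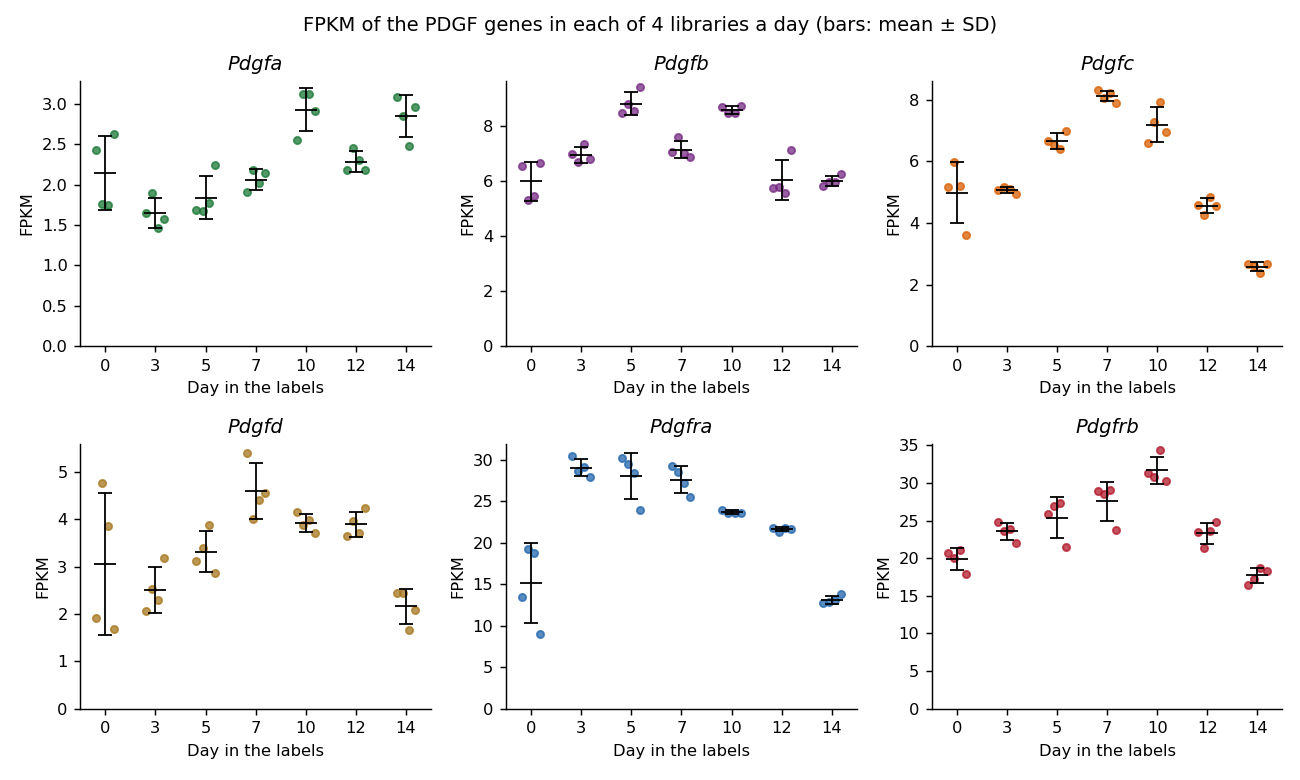
FPKM of the 6 PDGF genes (vertical axes, each from 0) against the day in the labels, with 1 point per library and the mean ± SD of 4 libraries as a cross with error bars. Pdgfra was high from day 3 and declined, Pdgfc and Pdgfrb peaked on days 7 and 10, and Pdgfa was highest on days 10 and 14. The day 0 points of Pdgfra and Pdgfd are widely spread.

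Compared with all 4 day 0 libraries, 3 to 5 of the 6 members were called higher on each day from 3 to 10, and 4 were called lower on day 14. A change was called at an adjusted p under 0.05 (edgeR quasi-likelihood test, Benjamini-Hochberg adjustment over all genes tested). The test pools the spread of a gene over all days, so its standard errors against day 0 can understate the day 0 spread. The SD of log2 CPM on days 0 and 3 was 0.51 and 0.040 for Pdgfra and 0.73 and 0.28 for Pdgfd. On day 3, 3 members were called higher and 1 lower, and of all genes tested 31.8% were called higher and 34.8% lower. Day 5 had 4 members higher and none lower (29.0% and 30.6% of all genes). There were 5 higher and none lower both on day 7 (25.6% and 24.8% of all genes) and on day 10 (23.5% and 26.9%). On these 3 days no member was lower by DESeq2 or at an unadjusted p under 0.05 in edgeR either. Day 12 had 1 member higher and 1 lower (21.7% and 25.6% of all genes), and day 14 had 1 higher and 4 lower (28.2% and 34.5%). All 4 libraries of the later day lay beyond all 4 of day 0 for 3, 4, 4, 4, 0 and 2 members on the 6 days in order, and for 56.8%, 46.1%, 39.2%, 41.4%, 38.7% and 50.7% of all genes. The median log2 fold change of the 6 members was 0.18, 0.42, 0.52, 0.47, 0.013 and -0.31 on days 3, 5, 7, 10, 12 and 14, and that of all genes tested lay between -0.056 and 0.0024. The counts of the late days rested on the day 0 libraries. On day 14, 2 members were called lower in place of 4 without day 0 replicates 2 and 3, namely Pdgfc, which stayed, and Pdgfb, and none higher. The same counts, 2 lower and none higher, were found when day 0 replicate 2 or 3 alone was left out, and no member was higher without day 14 replicate 1, 2 or 4. On day 12 there were 0 members higher without replicates 1 and 4, and 2 higher without replicates 2 and 3. Without replicates 2 and 3 there were 5 higher on day 3 and 1 lower on days 5 and 7, and without replicates 1 and 4 there was 1 lower on day 5. Leaving out 1 library at a time gave 0 or 1 lower on days 3 and 5, and 0 to 2 lower and 1 or 2 higher on day 12. No member met the criteria of the study's methods on any of these days, which ask for an unadjusted p under 0.05 and a log2 fold change beyond 1.5, and 18.9%, 13.9%, 9.40%, 9.47%, 7.39% and 14.0% of all genes did.

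Pdgfra, which encodes the receptor of fibroblasts and their precursors, was highest on day 3, and with all day 0 libraries this was the largest rise in the family. That order turned without day 0 replicates 1 and 4, since Pdgfra then rose by 0.67 on day 3 on the log2 scale, against 0.76 for Pdgfb on day 5 and 0.69 for Pdgfa on day 10. Its FPKM in day 0 replicates 1 to 4 was 13.5, 19.3, 18.7 and 9.02, and on day 3 it was 30.5, 28.6, 29.2 and 27.98. Every day 3 library lay above every day 0 library. The log2 fold change was 1.00 ± 0.13 (SE, adjusted p = 1.47e-07, edgeR with Benjamini-Hochberg adjustment). Levels then held at 30.3, 29.5, 28.4 and 24.0 FPKM on day 5 and at 29.2, 28.5, 27.2 and 25.5 FPKM on day 7, with log2 fold changes from day 0 of 0.93 ± 0.13 and 0.86 ± 0.13. Days 10 and 12 were lower and very even, at 24.0, 23.6, 23.6 and 23.6 FPKM and at 21.8, 21.3, 21.8 and 21.7 FPKM. Day 14 fell back to 12.7, 12.9, 13.1 and 13.8 FPKM, inside the day 0 range.

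The rise of Pdgfra on days 3, 5, 7 and 10 was called in every setting tried and without either pair of day 0 libraries (log2 fold changes in day order of 0.67, 0.61, 0.54 and 0.27 without replicates 1 and 4, and of 1.47, 1.36, 1.28 and 1.01 without replicates 2 and 3). The later calls depended on the day 0 pairs. On day 12 the log2 fold change was 0.37 ± 0.13 (adjusted p = 0.0192, edgeR) with all libraries, 0.049 without day 0 replicates 1 and 4, and 0.81 without replicates 2 and 3. On day 14 it was -0.33 ± 0.13 (adjusted p = 0.0275, edgeR), and -0.66 and 0.17 without these pairs. That call was also lost when any one of day 0 replicates 1, 2 and 3 or day 14 replicates 1 and 2 was left out (-0.15 to -0.32). The fall between wound days 12 and 14 does not involve day 0 and measured -0.70 ± 0.13 (adjusted p = 7.41e-05, edgeR).

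Pdgfrb, the receptor of pericytes and mural cells, was also called higher on days 3, 5, 7 and 10 and had its highest mean on day 10. Day 0 libraries held 20.7, 20.04, 21.1 and 17.9 FPKM and day 10 libraries 31.4, 30.7, 34.3 and 30.2 FPKM, with no overlap. This was a log2 fold change of 0.61 ± 0.08 (adjusted p = 2.45e-07, edgeR with Benjamini-Hochberg adjustment). In between, the day 3 libraries held 24.8, 23.6, 23.9 and 22.0 FPKM. Those of day 5 held 25.8, 27.0, 27.3 and 21.4, and those of day 7 held 28.9, 28.6, 29.0 and 23.7. All of these lay above day 0, with log2 fold changes of 0.30, 0.39 and 0.46 (SE 0.08 for each), and replicate 4 was the lowest on each of these days. Pdgfrb then returned to 23.4, 21.3, 23.6 and 24.8 FPKM on day 12 and to 16.5, 17.3, 18.7 and 18.3 on day 14.

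The calls of Pdgfrb on days 3, 5, 7 and 10 held in every setting and without either day 0 pair, with log2 fold changes in day order of 0.26, 0.35, 0.42 and 0.57 without replicates 1 and 4 and of 0.39, 0.44, 0.51 and 0.66 without replicates 2 and 3. Days 7 and 10 did not differ past the threshold (0.15 ± 0.08, adjusted p = 0.153, edgeR), although that step was called in 4 of 12 other settings, at 0.20 in each. Day 12 did not differ from day 0 past the threshold (log2 fold change 0.080 ± 0.08). Day 14 was lower than day 0 by -0.30 ± 0.08 on the log2 scale (adjusted p = 0.00189, edgeR), and by -0.18 without day 0 replicates 2 and 3, which is not past the threshold.

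The ratio of the receptors was compared with day 0 only, and no difference passed the adjusted threshold. In each library the FPKM of Pdgfra was divided by that of Pdgfrb. The geometric mean of this ratio was highest on day 3 at 1.23 (range 1.21 to 1.27). It was 1.11, 1.00, 0.750, 0.932 and 0.742 on the days after that, in order, and the day 10 libraries ranged from 0.687 to 0.782. Pdgfra exceeded Pdgfrb in 4 of 4 libraries of both day 3 and day 5, in 2 of 4 of day 7 and in 1 of 4 of day 12, and in no library of days 0, 10 and 14. The day 0 ratio spread from 0.505 to 0.964 (geometric mean 0.729), and all libraries of days 3 and 5 lay above it. The exact two-sided permutation test gave p = 0.0286 for both days, the smallest that 4 libraries against 4 allow, and 0.125 after adjustment over the 48 comparisons of ratios and shares with day 0. On days 10 and 14 the log2 differences were 0.041 and 0.026 (p = 0.886 and 0.943 by the same exact test). Their sign turned with the day 0 pair. They were -0.30 and -0.32 without day 0 replicates 1 and 4, and 0.39 and 0.37 without replicates 2 and 3. The log2 difference of the ratio on days 3 and 5 was 0.76 and 0.60, against 0.42 and 0.26 without day 0 replicates 1 and 4 and 1.10 and 0.95 without replicates 2 and 3.

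**Figure D2:**
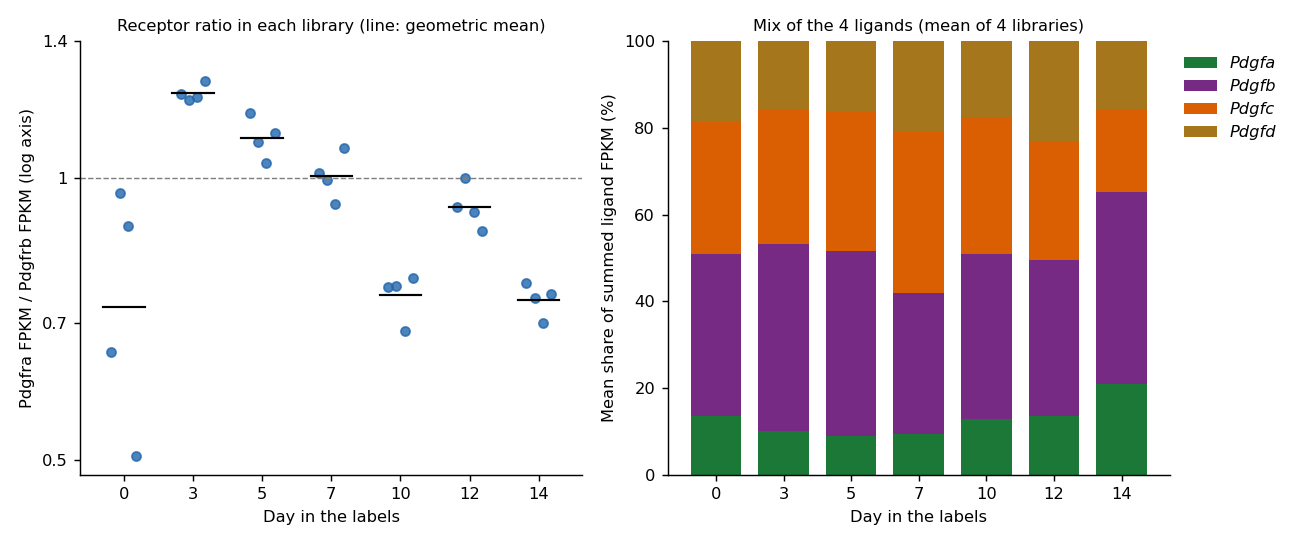
Left, the ratio of Pdgfra to Pdgfrb FPKM in each library (log axis, with a dashed line at 1 and black lines at the geometric means) against the day. Right, the mean share of each ligand in the summed FPKM of the 4 ligands (percent). The receptor ratio ran from 1.23 on day 3 to 0.750 on day 10, and the Pdgfc share from 37.1% on day 7 to 19.0% on day 14.

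Pdgfb, the ligand that endothelial cells use to recruit pericytes and that also leaves platelets and macrophages, was higher on 4 wound days and had separate maxima on days 5 and 10. The day 0 libraries held 6.54, 5.30, 5.45 and 6.63 FPKM. Those of day 3 held 6.98, 6.67, 7.35 and 6.81, and those of day 5 held 8.48, 8.79, 8.55 and 9.42. Day 7 libraries were lower than those of day 5, at 7.06, 7.61, 7.02 and 6.86 FPKM, and those of day 10 were higher again, at 8.67, 8.45, 8.46 and 8.72 FPKM. On days 12 and 14 it was back in or near the day 0 range, at 5.73, 5.77, 5.54 and 7.12 and at 5.83, 5.95, 5.95 and 6.26 FPKM. The log2 fold changes from day 0 were 0.27, 0.60, 0.25 and 0.46 on days 3, 5, 7 and 10 (SE 0.07 for each, adjusted p = 0.00204, 7.12e-08, 0.00588 and 6.67e-06, edgeR), and the libraries did not overlap with day 0 on any of these days.

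The dip of Pdgfb between its maxima passed the test in both directions. It fell by 0.35 on the log2 scale from day 5 to day 7 (SE 0.07, adjusted p = 0.000586, edgeR) and rose by 0.21 from day 7 to day 10 (SE 0.07, adjusted p = 0.0265, edgeR), with no overlap of libraries in either step. The second of these steps is the weaker, since it was no longer called when day 7 replicate 1, 3 or 4 or day 10 replicate 3 or 4 was left out, with log2 values of 0.19 to 0.21. Without day 0 replicates 2 and 3 the day 7 change from day 0 was 0.11 and was not called, whereas those of days 3, 5 and 10 were called in every setting. In day order these were 0.43, 0.76 and 0.62 without day 0 replicates 1 and 4, and 0.18, 0.47 and 0.32 without replicates 2 and 3. On day 12, where Pdgfb was not called (-0.13), it was lower without day 12 replicate 4 (-0.22). It was called lower on days 12 and 14 without day 0 replicates 2 and 3 (-0.26 and -0.19), and without replicates 1 and 4 its values were 0.030 and 0.037.

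Pdgfc, a ligand of PDGFRα secreted by fibroblasts and epithelia, had the widest course of the family. Day 0 libraries held 5.15, 5.99, 5.20 and 3.60 FPKM and day 3 libraries 5.08, 5.16, 5.09 and 4.93 FPKM, which did not differ past the threshold. It then climbed to 6.67, 6.54, 6.41 and 7.00 FPKM on day 5 and to 8.31, 8.05, 8.21 and 7.91 FPKM on day 7. The log2 fold changes from day 0 were 0.46 ± 0.09 and 0.70 ± 0.09 (adjusted p = 0.000137 and 4.50e-07, edgeR). Day 10 libraries still held 6.60, 7.28, 7.93 and 6.96 FPKM (log2 fold change 0.47 ± 0.09). These calls held without either day 0 pair, at 0.30, 0.54 and 0.31 without replicates 1 and 4 and at 0.65, 0.88 and 0.66 without replicates 2 and 3.

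After day 10 Pdgfc declined in successive steps. It held 4.59, 4.25, 4.84 and 4.53 FPKM on day 12 and 2.67, 2.60, 2.36 and 2.66 FPKM on day 14, below every library of every other day. The step from day 10 to day 12 was -0.75 ± 0.09 (adjusted p = 2.58e-07, edgeR) and that from day 12 to day 14 was -0.80 ± 0.10 (adjusted p = 1.77e-07, edgeR). On day 14 the change from day 0 was -1.08 ± 0.10 (adjusted p = 1.94e-10, edgeR), and it was called without either day 0 pair, at -1.24 and -0.82. The smaller difference from day 0 on day 12, -0.28 ± 0.09, was called in 7 of 14 other settings and was -0.078 without day 0 replicates 2 and 3. It was also lost without day 0 replicate 1 or 2 or day 12 replicate 2 (-0.17 to -0.24).

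Pdgfa, the other classical PDGFRα ligand, which keratinocytes make, followed another course, with its high levels late. Its FPKM was 2.43, 1.76, 1.74 and 2.63 on day 0 and 1.65, 1.90, 1.46 and 1.58 on day 3, and it stayed between 1.67 and 2.24 on days 5 and 7. Day 10 libraries were higher, at 2.56, 3.12, 3.12 and 2.91 FPKM, day 12 lay between 2.18 and 2.46, and day 14 libraries held 3.09, 2.85, 2.48 and 2.96 FPKM. Within the wound these were 3 called steps, a rise of 0.46 ± 0.12 from day 7 to day 10 (adjusted p = 0.00383, edgeR), a fall of -0.45 ± 0.12 to day 12 (adjusted p = 0.00309) and a rise of 0.33 ± 0.12 to day 14 (adjusted p = 0.0224), each on the log2 scale and without overlap of libraries. The last of these was not called without day 14 replicate 1, when it was 0.29.

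Against day 0, the Pdgfa values depended on which day 0 libraries were used, since replicates 1 and 4 were high and replicates 2 and 3 low. The log2 fold change on day 3 was -0.32 ± 0.12 (adjusted p = 0.0205, edgeR) with all libraries, -0.028 without replicates 1 and 4, and -0.52 without replicates 2 and 3. On day 10 it was 0.40 ± 0.12 (adjusted p = 0.00633, edgeR), 0.69 and 0.15 in the same order, and on day 14 it was 0.28 ± 0.12 (adjusted p = 0.0403, edgeR), 0.58 and 0.12. The day 3 fall was also lost when any one of day 0 replicates 1 and 4 or day 3 replicates 1, 3 and 4 was left out (-0.16 to -0.27), and the day 14 rise when any one of day 0 replicates 2 and 3 or day 14 replicates 1, 2 and 4 was (0.24 to 0.29). Day 5 was not called (-0.18), but was lower without day 5 replicate 4 (-0.29). From day 3 to day 14, without use of day 0, Pdgfa rose by 0.60 ± 0.12 (adjusted p = 7.05e-05, edgeR).

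Pdgfd, the ligand specific to PDGFRβ, could not be placed against day 0. The day 0 libraries held 1.92, 4.77, 3.87 and 1.68 FPKM, again in the pairs 1 with 4 and 2 with 3, and spanned nearly the whole range of the wound days. Its called changes were 0.58 ± 0.21 on day 7 (adjusted p = 0.0208, edgeR) and -0.63 ± 0.21 on day 14 (adjusted p = 0.0114, edgeR). Without day 0 replicates 1 and 4 these became 0.093 and -1.12, and without replicates 2 and 3 they became 1.34 and 0.21. On days 3, 5, 10 and 12 the sign itself turned between the pairs, for example from -0.72 to 0.58 on day 3. Single libraries also decided these calls. The day 7 rise was lost without day 0 replicate 1 or 4 or day 7 replicate 1 (0.38 to 0.50) and the day 14 fall without day 0 replicate 2 or 3 (-0.29 and -0.46), while without day 0 replicate 2 rises were called on days 5, 10 and 12 (0.45, 0.61 and 0.51).

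Within the wound Pdgfd had a clearer course. The day 3 libraries held 2.06, 2.52, 2.29 and 3.19 FPKM. Those of day 7 held 5.41, 4.01, 4.42 and 4.56 FPKM, and those of day 14 held 2.45, 2.45, 1.67 and 2.08. It was 0.81 ± 0.21 higher on day 7 than on day 3 on the log2 scale (adjusted p = 0.00207, edgeR). Days 10 and 12 lay between 3.65 and 4.25 FPKM, and the fall from day 12 to day 14 was -0.83 ± 0.21 (adjusted p = 0.00207, edgeR), with no overlap of libraries.

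**Figure D3:**
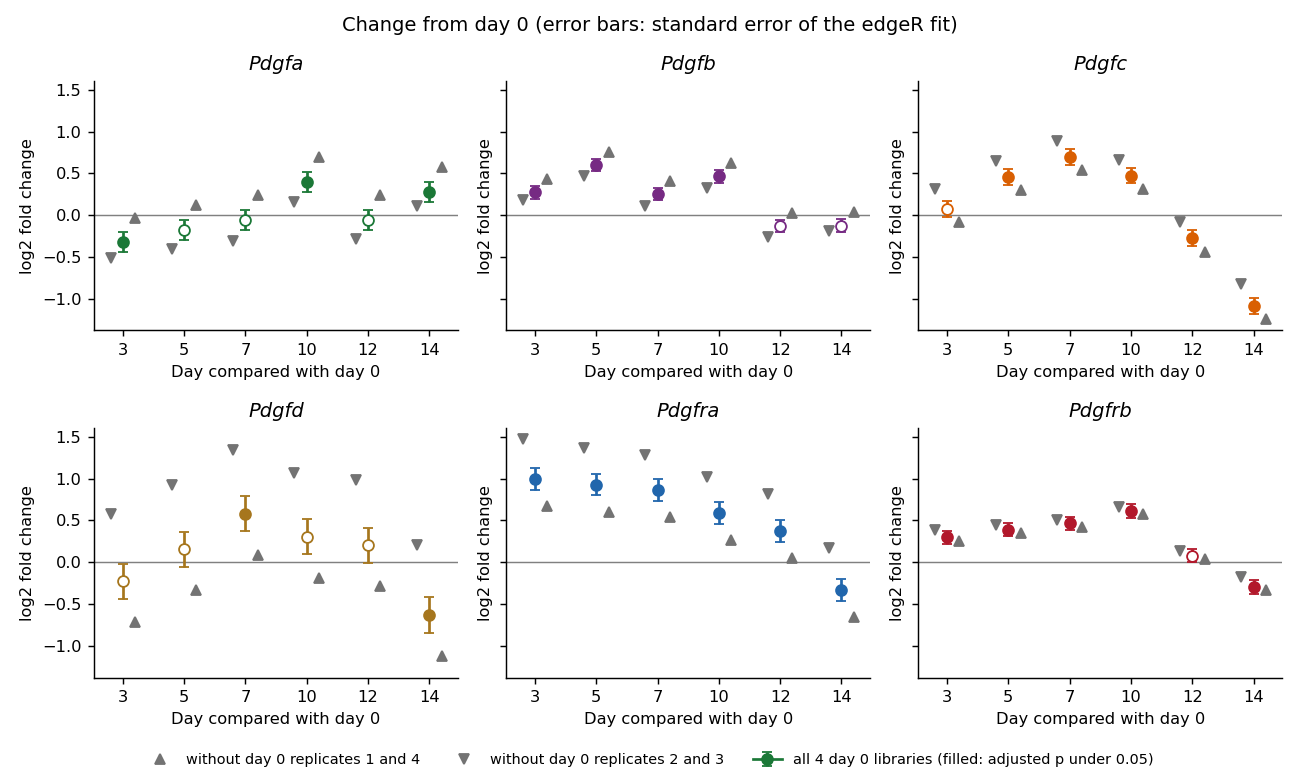
Log2 fold change from day 0 of each PDGF gene (vertical axes) on each later day, as the edgeR estimate with its standard error (circles, filled at an adjusted p under 0.05) and as estimates without day 0 replicates 1 and 4 (upward triangles) or 2 and 3 (downward triangles). Estimates for Pdgfrb keep to 1 side of 0 on each day, whereas those without a pair lie on both sides of 0 for Pdgfd on days 3, 5, 10, 12 and 14, for Pdgfa on days 5, 7 and 12, for Pdgfb on days 12 and 14, for Pdgfc on day 3 and for Pdgfra on day 14.

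From one wound day to the next, the members moved most after day 10. From day 3 to day 5, 2 rose and none fell (12.9% of all genes rose and 11.4% fell), namely Pdgfb by 0.33 and Pdgfc by 0.38 on the log2 scale. Between days 5 and 7 the fall of Pdgfb was the only call (13.9% of all genes rose and 14.6% fell). Pdgfc missed the threshold in that step (0.24 ± 0.09, adjusted p = 0.0501, edgeR), although its libraries did not overlap, and it was called in 7 of 12 other settings and without day 5 replicate 4 (0.27). From day 7 to day 10, Pdgfa and Pdgfb rose (14.3% of all genes, with 18.0% lower), the latter in the step described above that rests on single libraries. The difference of -0.23 for Pdgfc was not called, but was lower without day 10 replicate 3 (-0.29). The step to day 12 brought no rise and falls of 4 members (18.7% of all genes rose and 20.7% fell), namely Pdgfa, Pdgfb, Pdgfc and Pdgfrb, the last with a log2 fold change of -0.53 ± 0.08. Pdgfra was not among them (-0.22 ± 0.13), but was called lower in 2 of 12 other settings. In the step to day 14, 1 member rose and 4 fell (19.9% and 25.3% of all genes). Pdgfc, Pdgfd, Pdgfra and Pdgfrb fell, the last with a log2 fold change of -0.38 ± 0.08, Pdgfa rose, and Pdgfb differed by 0.0067 ± 0.07. All libraries of a day lay beyond all of the day before for 2, 3, 4, 5 and 5 members in these 5 steps, and for 28.8%, 29.6%, 37.3%, 45.8% and 46.6% of all genes. These comparisons share libraries with each other, and those with day 0 share the day 0 libraries, so they are not independent.

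Ordered by mean log2 CPM on the TMM scale of the test (scaling factors from most genes), neighbouring days could often not be told apart. For Pdgfra the order was days 3, 5, 7, 10 and 12, followed by day 0 and then day 14, and the neighbours that differed were days 12 and 0 and days 0 and 14. For Pdgfrb the order was 10, 7, 5 and 3, then 12, 0 and 14, with differences between days 3 and 12 and between days 0 and 14. Pdgfc ran 7, 10, 5, 3, 0, 12 and 14 and differed between days 5 and 3, 0 and 12, and 12 and 14, and Pdgfb ran 5, 10, 3, 7, 0, 14 and 12 and differed between days 10 and 3 and between days 7 and 0. In Pdgfa (10, 14, 0, 12, 7, 5 and 3) days 14 and 0 differed, and in Pdgfd (7, 10, 12, 5, 0, 3 and 14) no neighbours did. The FPKM, which are scaled by library totals only, give another order in these cases. Pdgfb had its lowest mean FPKM on day 0 (5.98, against 6.04 and 6.00 on days 12 and 14) and stood higher on day 7 than on day 3 (7.14 against 6.95), and Pdgfa stood higher on day 12 than on day 0 (2.28 against 2.14 FPKM).

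The share of each ligand in the summed ligand FPKM was also compared with day 0, and no difference passed the adjusted threshold. Pdgfc made up 30.6%, 37.1% and 19.0% of this sum for days 0, 7 and 14, and the libraries of both later days did not overlap with day 0. Pdgfa went from 13.5% on day 0 to 8.90% on day 5 and 20.9% on day 14, and Pdgfb from 32.6% on day 7 to 44.3% on day 14. The ratio of Pdgfa to Pdgfb, both cut by furin-like enzymes, had geometric means of 0.354, 0.236, 0.208, 0.289 and 0.473 for days 0, 3, 5, 7 and 14. Summed over the family, the ligand to receptor ratio was lowest on day 3 (geometric mean 0.308, range 0.285 to 0.330), against 0.465 on day 0 (0.408 to 0.541). It was 0.373 on day 12 (0.357 to 0.389), also below every day 0 library. For the day 7 and day 14 shares of Pdgfc, the day 14 share of Pdgfa, the Pdgfa to Pdgfb ratios named and the day 3 and day 12 ligand to receptor ratios, the exact permutation test against day 0 gave p = 0.0286, and 0.125 after adjustment. All of these kept their direction without either day 0 pair. The Pdgfc share differed from day 0 by 4.26 and 8.63 percentage points on day 7 and by -13.8 and -9.46 on day 14 (without replicates 1 and 4, then without 2 and 3), and the Pdgfa share on day 14 by 10.6 and 4.31. The day 5 share of Pdgfa differed from day 0 by -4.56 percentage points (exact permutation p = 0.0571 before adjustment), by -1.40 without replicates 1 and 4 and by -7.71 without replicates 2 and 3. With 2 libraries of day 0 the smallest exact permutation p is 0.133.

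The sequences before the transcription start sites are shown for the members with the largest changes when all day 0 libraries were used, Pdgfra and Pdgfc, and for Pdgfa, whose course differed from theirs. They were taken from RefSeq on the mouse build GRCm38.p6, the build that mm10 denotes, as the 250 bases upstream of each annotated start. RefSeq entries were at hand for 4 members, Pdgfa with 2 starts, and not for Pdgfb and Pdgfrb. Capitals mark matches, on either strand, to a TATA box (TATAAA), a GC box (GGGCGG, the Sp1 motif), a CCAAT box (CCAAT) or an AP-1 site (TGANTCA). The windows are Pdgfra at chr5:75152001-75152250 on the plus strand, Pdgfc at chr3:81036166-81036415 on the plus strand, and Pdgfa at chr5:138994282-138994531 (first start) and chr5:138994945-138995194 (second start), both on the minus strand.
Pdgfra: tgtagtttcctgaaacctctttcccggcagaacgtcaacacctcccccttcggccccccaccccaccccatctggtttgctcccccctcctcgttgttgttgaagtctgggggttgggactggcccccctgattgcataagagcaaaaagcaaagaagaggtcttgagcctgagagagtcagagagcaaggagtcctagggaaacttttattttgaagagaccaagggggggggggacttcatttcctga
Pdgfc: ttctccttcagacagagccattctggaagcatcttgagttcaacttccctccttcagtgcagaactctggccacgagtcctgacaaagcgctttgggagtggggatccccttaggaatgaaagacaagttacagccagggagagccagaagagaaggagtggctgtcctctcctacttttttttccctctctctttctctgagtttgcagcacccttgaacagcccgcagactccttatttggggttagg
Pdgfa, first start: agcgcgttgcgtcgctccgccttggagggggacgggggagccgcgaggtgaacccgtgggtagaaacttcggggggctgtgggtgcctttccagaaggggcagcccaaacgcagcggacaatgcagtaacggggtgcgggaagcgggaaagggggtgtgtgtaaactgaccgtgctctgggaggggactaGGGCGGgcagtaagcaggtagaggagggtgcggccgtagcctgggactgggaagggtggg
Pdgfa, second start: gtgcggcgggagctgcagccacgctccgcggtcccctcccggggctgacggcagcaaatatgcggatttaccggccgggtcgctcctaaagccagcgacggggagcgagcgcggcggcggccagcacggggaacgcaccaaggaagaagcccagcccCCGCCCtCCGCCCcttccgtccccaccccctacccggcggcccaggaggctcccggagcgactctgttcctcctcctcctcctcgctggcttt
The windows of Pdgfra and Pdgfc held none of the 4 motifs. That of the first Pdgfa start held a GC box 60 bases upstream, and that of the second held GC boxes on the other strand 93 and 86 bases upstream. In Pdgfd (chr9:6168236-6168485, plus strand) a TATA box lay 160 bases upstream of the start. Of all 32851 such windows, 32.7% held a GC box, 12.4% a TATA box, 33.8% a CCAAT box and 6.75% an AP-1 site, so these matches are common ones and are given as a description.

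Of 12 genes for the enzymes that free the ligands and the proteins that bind them, 8 were called higher and 4 lower on day 3. On days 5, 7, 10, 12 and 14 the counts higher were 8, 6, 4, 5 and 3, and the counts lower were 3, 2, 2, 2 and 6. On day 3 these were 66.7% higher and 33.3% lower, against 31.8% and 34.8% of all genes. On the later days in order, 66.7%, 50%, 33.3%, 41.7% and 25% were higher, against 29.0%, 25.6%, 23.5%, 21.7% and 28.2% of all genes. Those lower were 25%, 16.7%, 16.7%, 16.7% and 50%, against 30.6%, 24.8%, 26.9%, 25.6% and 34.5% of all genes. The convertases that cut PDGF-A and PDGF-B moved apart. Pcsk5 rose from a mean of 1.54 FPKM on day 0 to 12.7 on day 3, a log2 fold change of 3.10 ± 0.11 (adjusted p = 5.51e-19, edgeR) and the largest rise in the list, and remained called on all later days. Furin, the prototype of the family, went from 16.3 to 32.9 FPKM on day 3 (log2 fold change 1.07), Pcsk7 rose by 0.41, and Pcsk6 was called lower on all 6 days, with a log2 fold change of -1.45 on day 3. The calls of Pcsk6 on days 7 and 12 were lost without day 0 replicates 2 and 3 (-0.13 and -0.071).

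The proteases that free PDGF-C and PDGF-D also differed. Plat, encoding tissue plasminogen activator, which activates PDGF-C, rose from 14.4 FPKM on day 0 to 42.3 on day 7, with log2 fold changes of 0.64, 1.31, 1.55, 1.48, 0.55 and -0.036 on days 3, 5, 7, 10, 12 and 14, the first 5 of which were called, also without either day 0 pair. On day 14 Plat was called lower without replicates 1 and 4 (-0.39) and higher without replicates 2 and 3 (0.52). Pdgfc too had its highest mean on day 7. Plau, encoding urokinase, which activates PDGF-D, rose by 0.48, 0.50 and 0.40 on days 3, 5 and 7 and fell on days 12 and 14, whereas St14 (matriptase), which can also cut PDGF-D, fell through day 10 and rose by 1.09 and 1.84 on days 12 and 14. The day 7 rise of Plau was not called without day 0 replicates 1 and 4 (0.15), nor its day 12 fall without replicates 2 and 3 (0.015).

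Among the binding proteins, the co-receptors rose early. Lrp1 rose from 44.5 to 118 FPKM on day 3 and Nrp1 from 12.6 to 23.8 FPKM (log2 fold changes 1.46 and 0.98). Cspg4 (NG2), a proteoglycan of pericytes that binds PDGF-A, was higher on days 3, 5, 12 and 14, by 0.99 on the last. Sparc, a matrix protein that binds PDGF-B, fell on days 3 and 14 (log2 fold change -1.01 on the latter), and Pdgfrl, a receptor-like gene with no kinase domain, fell most, by -2.46 ± 0.26 on day 3 (adjusted p = 4.02e-09, edgeR), with day 0 libraries between 627 and 2989 counts. Neither call of Sparc was made without day 0 replicates 2 and 3 (-0.068 and -0.050), nor were those of Cspg4 on days 5 and 12 (0.10 and 0.11), and the day 3 value of Pdgfrl was -1.39. Without day 0 replicates 2 and 3, 2 of the 12 genes in place of 6 were called lower on day 14 and 8 in place of 4 were called higher on day 10, and without replicates 1 and 4, 4, 5 and 5 in place of 2 were called lower on days 7, 10 and 12. The count lower on day 12 thus ran from 0 to 5 and that on day 7 from 1 to 4, depending on the day 0 pair.

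Inside the cell, the genes of the receptor-proximal adaptors and enzymes went both ways. Of 15, the counts called higher on the 6 days in order were 3, 3, 6, 4, 6 and 4, and those called lower were 5, 3, 2, 4, 2 and 8, with medians between -0.18 and 0.12 on the log2 scale. Those higher were 20%, 20%, 40%, 26.7%, 40% and 26.7%, against 31.8%, 29.0%, 25.6%, 23.5%, 21.7% and 28.2% of all genes. Those lower were 33.3%, 20%, 13.3%, 26.7%, 13.3% and 53.3%, against 34.8%, 30.6%, 24.8%, 26.9%, 25.6% and 34.5% of all genes. The largest rise was in Grb2, the adaptor that leads to Ras (0.70 ± 0.05 on day 3, adjusted p = 2.35e-13, edgeR), and the largest fall in Pik3r1, the regulatory subunit of PI3-kinase (-0.80 ± 0.07 on day 5, adjusted p = 2.08e-10). Of 9 genes that restrain receptor signalling (ubiquitin ligases, phosphatases, Sprouty genes), the counts higher were 6, 6, 4, 1, 3 and 4 and the counts lower 1, 3, 2, 3, 3 and 4. Those higher were 66.7%, 66.7%, 44.4%, 11.1%, 33.3% and 44.4%, against 31.8%, 29.0%, 25.6%, 23.5%, 21.7% and 28.2% of all genes. Those lower were 11.1%, 33.3%, 22.2%, 33.3%, 33.3% and 44.4%, against 34.8%, 30.6%, 24.8%, 26.9%, 25.6% and 34.5% of all genes. Dusp6, a phosphatase of ERK, rose by 1.48 ± 0.06 on day 3 (adjusted p = 1.22e-17, edgeR), and Ptprj, which acts on PDGFRβ, rose by 0.96 on day 3 and fell by 1.58 ± 0.10 on day 14 (adjusted p = 2.48e-13). Without day 0 replicates 1 and 4, 2 adaptor genes in place of 4 were higher on day 10 and 1 restraining gene in place of 3 was lower on day 5. Without replicates 2 and 3, 5 adaptor genes in place of 3 were higher on day 5 and 2 in place of 4 lower on day 10, and without either pair no restraining gene was higher on day 10.

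Of 11 early-response genes that PDGF and many other signals induce, 9 were called higher and 1 lower on both day 3 and day 5, with medians of 2.16 and 1.67 on the log2 scale. On both days 81.8% were higher and 9.09% lower, against 31.8% and 34.8% of all genes on day 3 and 29.0% and 30.6% on day 5. On days 7, 10, 12 and 14 the counts higher were 6, 2, 2 and 5, and the counts lower 2, 4, 0 and 5. Those higher were 54.5%, 18.2%, 18.2% and 45.5%, against 25.6%, 23.5%, 21.7% and 28.2% of all genes. Those lower were 18.2%, 36.4%, 0% and 45.5%, against 24.8%, 26.9%, 25.6% and 34.5% of all genes. At an unadjusted p under 0.05 in edgeR, 1 was lower on day 12. Cxcl1, a neutrophil chemokine, moved most, from 0.843 FPKM on day 0 to 64.5 on day 3 (log2 fold change 6.31 ± 0.13, adjusted p = 1.99e-23, edgeR) and to 0.303 on day 14 (-1.59). These counts moved with the day 0 pairs. Without replicates 1 and 4, 6 and 7 genes were higher for days 10 and 12, and 1, 1 and 3 were lower for days 7, 12 and 14. Without replicates 2 and 3, 2 were lower for day 5 and 7 for day 10, with 4 higher and 4 lower for day 12.

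The cell types known to carry these genes also changed in the tissue, as judged by their marker genes. In bulk tissue, fewer cells of a type and less RNA per cell cannot be told apart. Summed fibroblast markers had a median of 40239 CPM on day 0 (range 14691 to 57205) and of 22598 CPM on day 3, when 6 of 8 were called lower, although Pdgfra rose on that day. They then stood at 41175, 56200, 53517 and 42421 CPM on days 5, 7, 10 and 12 and at 17831 CPM on day 14, when all 8 were called lower than day 0 and Pdgfra, Pdgfrb, Pdgfc and Pdgfd fell from day 12. On days 3 and 14, 75% and 100% of the fibroblast markers were called lower, against 34.8% and 34.5% of all genes. These calls rested on day 0 replicates 2 and 3. The sums of day 3 (21655 to 23764 CPM) and day 14 (16342 to 19539 CPM) lay between those of day 0 replicates 4 and 1, and without replicates 2 and 3, 2 markers were lower and 5 higher on day 3, and 4 lower on day 14. Without replicates 1 and 4, 7 and 8 markers were lower on these days. Pericyte markers had medians of 822, 492, 835 and 502 CPM for days 0, 3, 10 and 14, and their highest wound day was also that of Pdgfrb. Their sums on days 5 and 7 were 606 and 692 CPM, below day 0, and of 7 markers 5, 3 and 3 were called lower and 1, 1 and 2 higher on days 3, 5 and 7, when Pdgfrb was called higher. Those lower were 71.4%, 42.9% and 42.9%, against 34.8%, 30.6% and 24.8% of all genes. Those higher were 14.3%, 14.3% and 28.6%, against 31.8%, 29.0% and 25.6% of all genes. On day 10, 2 were higher and 3 lower (3 higher without either day 0 pair). These were 28.6% and 42.9%, against 23.5% and 26.9% of all genes. The part of these shifts in the PDGF results was not tested.

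Endothelial markers were higher on the days on which Pdgfb was, with medians of 984, 997, 812 and 786 CPM on days 3, 5, 7 and 10, against 608 on day 0 and 494 and 478 on days 12 and 14. Of 8, 6 (75%) were called higher and 1 lower on each of days 3, 5 and 7, against 31.8%, 29.0% and 25.6% of all genes higher. On day 10, 5 (62.5%) were higher, against 23.5% of all genes, and on days 12 and 14, 5 and 4 were lower (62.5% and 50%, against 25.6% and 34.5%). On days 3, 5, 7 and 10, without day 0 replicates 1 and 4, 5 or 6 were higher and 2 lower, and without replicates 2 and 3, 7 were higher and at most 1 lower. Macrophage markers were highest on days 3 and 5 (5419 and 5644 CPM, against 2892 on day 0 and 966 on day 14), with 8 of 8 called higher on both, also without either day 0 pair. This was 100%, against 31.8% and 29.0% of all genes. On day 10 they stood at 2428 CPM, with 2 of 8 called higher and 6 lower. These were 25% and 75%, against 23.5% and 26.9% of all genes. The platelet list summed to 299 CPM on day 3 against 86.9 on day 0, nearly all of it from Pf4 and Ppbp, while the defining platelet gene Gp6 had 0 to 6 counts, Gp9 0 to 21 and Gp1ba 0 to 27 in any library, and 6 of its 8 genes were testable. Keratinocyte markers had a day 0 median of 5573 CPM, with 7095 and 8233 CPM in replicates 1 and 4 and 3939 and 4051 CPM in replicates 2 and 3, and wound day medians of 3439 to 5014 CPM. On day 14, 1 of 7 was called higher and 4 lower, and 3 higher and 2 lower without day 0 replicates 1 and 4. With all libraries this was 14.3% and 57.1%, against 28.2% and 34.5% of all genes. On day 10, 0 were higher and 5 lower (71.4%, against 26.9% of all genes lower). For day 10, 2 were higher and 4 lower without replicates 1 and 4, and 0 higher and 6 lower without replicates 2 and 3. Adipocyte markers had day medians between 2547 CPM (day 12) and 5582 CPM (day 3). On day 3, 2 of the 6 adipocyte markers were called higher and 2 lower (33.3% each, against 31.8% and 34.8% of all genes). Their median log2 fold change was -0.057. Skeletal muscle markers had medians of 22857 CPM on day 0 and 4325 to 8051 CPM afterwards. The part of these shifts was likewise not tested.

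**Figure D4:**
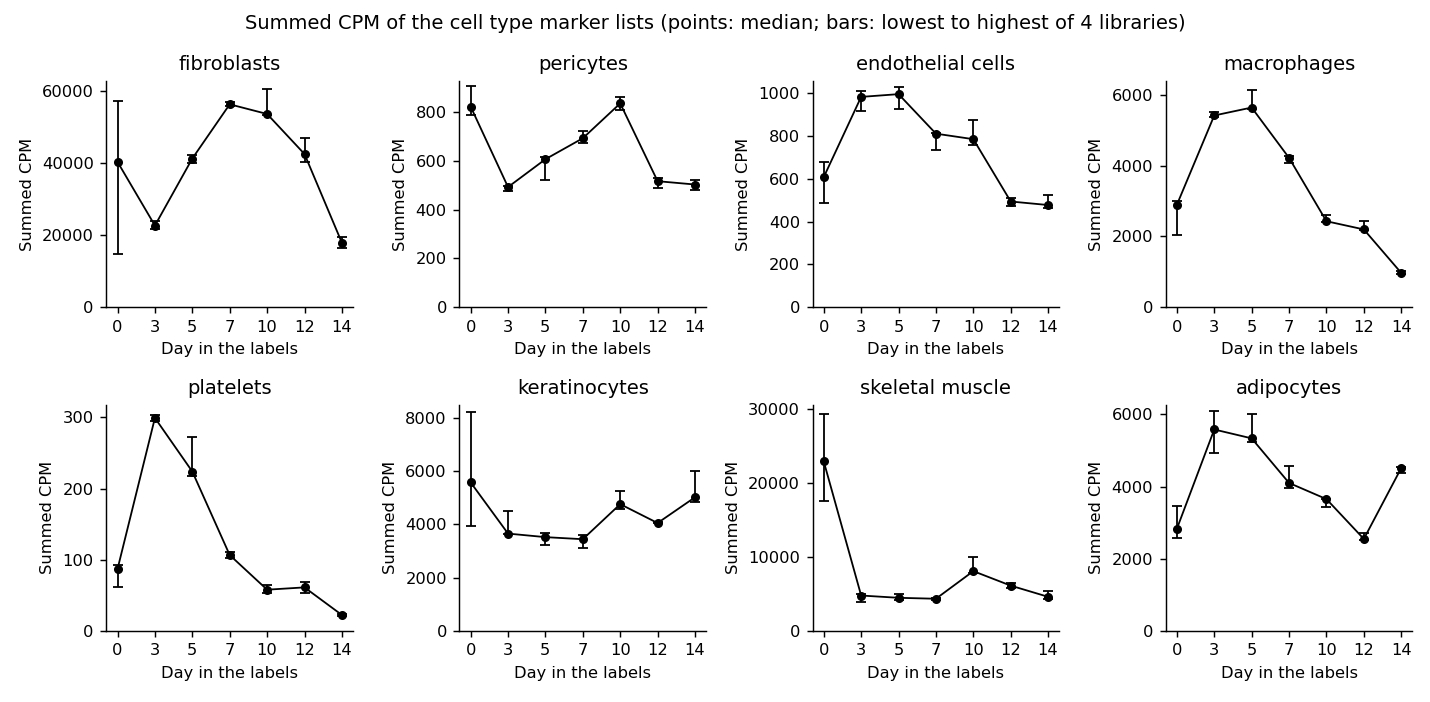
Summed CPM of 8 cell type marker lists (vertical axes from 0) against the day, with the median of 4 libraries as points and the lowest to highest library as bars. Endothelial and macrophage markers are highest on days 3 and 5, fibroblast markers on days 7 and 10, and the day 0 bars of the fibroblast and keratinocyte lists are long.

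Genes with the course most like that of each member were sought among 10736 other genes with a mean of at least 10 CPM, by Pearson's r of log2 CPM over the 28 libraries, which share days and, for day 0, the pairs described. Pdgfra was closest to Lox, encoding lysyl oxidase, which crosslinks collagen (r = 0.99, Spearman's rho = 0.97), followed by Fndc3b and Arsi (r = 0.98 and 0.97). For Pdgfb the closest was Tie1, an endothelial receptor that is also in the endothelial list above (r = 0.93), then Esam, an endothelial adhesion molecule, and Psap (r = 0.90 for both). Pdgfc was closest to Cmtm3, Sec23a and Mfsd11 (0.97, 0.96 and 0.96), Pdgfd to Nox4, an NADPH oxidase, Fam114a1 and Fkbp7 (0.92, 0.92 and 0.91), and Pdgfrb to Arhgef7, Tbc1d2b and the matrix gene Fbln2 (0.96, 0.94 and 0.93). Pdgfa had weaker likenesses, to Pigl, 2410002F23Rik and Eny2 (0.84, 0.83 and 0.83). Within the family r was 0.88 between Pdgfc and Pdgfrb, 0.80 between the receptors, 0.79 between Pdgfc and Pdgfra and -0.58 between Pdgfa and Pdgfra. These values describe shared courses over the days and carry no test.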

How the data were processed

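TRIzol extracts of whole wound sites were made into libraries with the VAHTS Universal V6 kit and sequenced. The authors deposited raw counts per gene, and FPKM in a second table. The deposited FPKM equal the counts divided by a fixed length per gene and the library total. The submitters' processing notes name fastp, R 3.2.0 and mm10, while the aligner, counter, annotation and strandedness are not given in the sources used here, so reads shared by overlapping genes cannot be told apart. The series' design text speaks of 5 repeats, and 4 libraries a day were analysed here. Totals were 36706513 to 40655764 counts (median 39499595).

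All 28 libraries entered 1 model of the counts without covariates (R 4.3.3, edgeR 4.0.16 with TMM, filterByExpr by day, estimateDisp, and the two-sided quasi-likelihood F-test, 21 residual degrees of freedom). Adjustment followed Benjamini and Hochberg over 18107 genes, and an adjusted p under 0.05 was called. Ratios within libraries were compared by exact permutation, 4 libraries against 4. Marker sums in CPM and log2 CPM (prior count 2) were computed from the counts. On simulated counts for day 3 against day 0, edgeR recovered 92.9% of genes changed by 1 and 99.1% of those changed by 2 on the log2 scale, with 9 false calls among 17730 genes. The simulation gave each gene the same spread on all days, so it left out the wider spread of the real day 0 libraries. It therefore cannot show how often calls against day 0 are false in these data. No libraries of a day were as alike as repeats of 1 library would be.

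Alternatives were RLE size factors, library totals only, other filters, DESeq2 1.42.0, limma 3.58.1 on log2(FPKM + 1) and log2(FPKM + 0.1), fits of the 8 libraries compared, Xist as a covariate, a replicate block and each library left out. Leaving out day 0 pairs (for members, lists, markers and ratios) and limma with a weight per day were added after the data were seen. Xist had at most 13 counts in any library, so that this covariate carried no difference of sex.

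The genes named are the 6 members, the largest rise and fall in each pathway list, all ligand-processing and binding genes, and the 3 genes most like each member. Krt14, Xist and the platelet markers Pf4, Ppbp, Gp6, Gp9 and Gp1ba were named in addition. Marker lists covered fibroblasts, pericytes, endothelial cells, platelets, macrophages, keratinocytes, skeletal muscle and adipocytes. The members and lists were chosen with earlier results of these data known. Promoter sequences are from RefSeq (GRCm38.p6). All table columns were used.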

Additional observations from a re-analysis of the deposited data

Results flagged for a closer look

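Within each day, a library was picked out when its gap to the nearest other library took up more than 0.829 of the range of the 4. Of 98 sets of 4 libraries examined (6 members, ratios and ligand shares, by day), 6 were picked out, where chance alone gives about 4.9. Replicate 4 of day 7 was low in Pdgfrb, at 7.19 on the log2 CPM scale against 7.49 to 7.51 in the others. The same library was high in the ratio of summed ligands to summed receptors, at -1.20 on the log2 scale against -1.38 to -1.36. Replicate 4 of day 5 was likewise high in that ratio, at -1.08 against -1.49 to -1.43, and in the Pdgfa share of the ligand FPKM, at 10.4% against 8.20% to 8.57%. Replicate 3 of day 10 was low in the ratio of Pdgfra to Pdgfrb, at -0.54 on the log2 scale against -0.38 to -0.35. Replicate 3 of day 7 was high in the Pdgfc share, at 37.9% against 36.6% to 36.8%.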

How the results depend on the processing

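The calls against day 0 of Pdgfb on days 3, 5 and 10, Pdgfc on days 5, 7, 10 and 14, and Pdgfra and Pdgfrb on days 3, 5, 7 and 10 held in all 14 other settings and in all fits with a library left out. RLE size factors, DESeq2, a minimum of 10 counts in every library and Xist as a covariate changed no call against day 0. The values below are log2 fold changes from day 0 unless named otherwise, and the causes were not tested.

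The replicate numbers pair nothing in these data (median correlation of deviations between libraries with the same number -0.00091), and the replicate block changed no call against day 0, with Pdgfra on day 3 at 1.02 and Pdgfc on day 14 at -1.08.

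Calls lost with edgeR on the 8 libraries compared were those of Pdgfa on days 3 (-0.35) and 14 (0.35), Pdgfb on day 7 (0.22), Pdgfd on days 7 (0.54) and 14 (-0.56), Pdgfc on day 12 (-0.28), and Pdgfra on days 12 (0.37) and 14 (-0.26). With library totals only, Pdgfc on day 12 (-0.13) and Pdgfra (-0.21) and Pdgfrb (-0.17) on day 14 were lost and Pdgfrb on day 12 (0.22) was gained. That scaling moved the median of all genes on day 12 from -0.037 to 0.11 and on day 14 from -0.056 to 0.070, and the day 12 calls over all genes from 3923 higher and 4634 lower to 6082 and 2943. With limma on log2(FPKM + 0.1), Pdgfc on day 12 (-0.11) and Pdgfd (-0.37), Pdgfra (-0.14) and Pdgfrb (-0.17) on day 14 were lost and Pdgfrb on day 12 (0.22) was gained. With log2(FPKM + 1), also above a mean FPKM of 1, the same calls changed (Pdgfc -0.093, Pdgfd -0.29, Pdgfra -0.14, Pdgfrb -0.16 and, for day 12, 0.21). With limma and a weight per day, Pdgfa on days 3 (-0.30) and 14 (0.31), Pdgfc on day 12 (-0.26) and Pdgfd (-0.52) and Pdgfra (-0.27) on day 14 were lost. With no filter, Pdgfra on day 14 (-0.30) was lost.

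Without day 0 replicates 1 and 4, Pdgfa on day 3 (-0.028), Pdgfd on day 7 (0.093) and Pdgfra on day 12 (0.049) were lost, Pdgfd on day 3 (-0.72) was gained and Pdgfd on day 5 (-0.34) turned. Without day 0 replicates 2 and 3, Pdgfb on day 7 (0.11), Pdgfa on days 10 (0.15) and 14 (0.12), Pdgfc on day 12 (-0.078) and Pdgfrb on day 14 (-0.18) were lost. Pdgfc on day 3 (0.31), Pdgfa on days 5 (-0.41) and 7 (-0.30), Pdgfd on days 5 (0.93), 10 (1.07) and 12 (0.98) and Pdgfb on days 12 (-0.26) and 14 (-0.19) were gained, and Pdgfd on days 3 (0.58) and 14 (0.21) and Pdgfra on day 14 (0.17) turned.

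With each library left out in turn, the call changed in 1 or more of the 8 fits for the results below, whose values are given as the range over all 8 fits. Pdgfa had -0.41 to -0.16, -0.29 to -0.054 and 0.24 to 0.47 for days 3, 5 and 14. Pdgfb had -0.22 to -0.061 and Pdgfc -0.39 to -0.17 on day 12. Pdgfd had -0.035 to 0.45, 0.38 to 0.88, 0.11 to 0.61, 0.019 to 0.51 and -0.75 to -0.29 on days 5, 7, 10, 12 and 14, and Pdgfra -0.44 to -0.15 on day 14. The counts of members called against day 0 were 3 higher on day 3, and ranged from 4 to 5 for days 5 and 7, 5 to 6 for day 10, 1 to 2 for day 12 and 0 to 1 for day 14. Those lower ranged from 0 to 1 for days 3 and 5, 0 to 2 for day 12 and 2 to 4 for day 14, and were 0 for days 7 and 10. Between wound days, 1 member was called higher from day 5 to day 7 with library totals only, a minimum of 10 counts or limma on FPKM, and 2 with 8 libraries or limma with weights, against 0. From day 7 to day 10, 3 were called lower with 8 libraries and 2 with limma and weights, against 0. In the same step Pdgfrb was called higher with library totals only and with limma on FPKM (0.20 in each), and from day 10 to day 12 Pdgfra was called lower with 8 libraries (-0.21) and with limma and weights (-0.22). With a library left out these counts ranged from 0 to 1 in both, from 1 to 2 for those higher from day 7 to day 10, and from 0 to 1 for those higher from day 12 to day 14. A pseudocount of 1 moved the difference of the Pdgfa share, day 7 less day 0, from -4.04 to -3.90 percentage points and its exact permutation p from 0.0857 to 0.0286, before adjustment. The day 0 spread limits most of the smaller changes.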
